A study of Mus musculus with 6 samples.

Results

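Aminoacyl-tRNA synthetases attach each amino acid to its tRNA, the step that supplies charged tRNA to the ribosome. Animal cells carry separate nuclear genes for most of the cytosolic enzymes and for the enzymes imported into mitochondria, whose symbols end in 2. A few genes cover more than 1 role: Kars and Gars each encode a cytosolic and a mitochondrial form, and Eprs encodes a fused enzyme for glutamate and proline. Many of the cytosolic genes are known targets of ATF4, the transcription factor of the amino acid response, which binds an element with the core TGATGNAA. Genes for mitochondrial translation are more often described as targets of NRF1 and of the ETS factor GABP.

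The 36 enzymes were taken by a list of gene symbols, 20 cytosolic and 16 mitochondrial. The list applied no cut on measured values, but it was chosen with earlier results of these data known. On the arrays 35 of them had a probe set annotated to 1 symbol, all matched by symbol, and 34 of these passed the signal filter, among 10685 genes tested in all. Dars is not analysed here. Mars2 was below the filter, with signals of 18.0, 29.5 and 24.3 in untreated and 21.9, 21.0 and 13.3 in pyruvate cells, which overlapped. The samples were C2C12 cells, a mouse myoblast line, labelled undifferentiated and kept for 72 h at 37 °C in 100 mm dishes, with 3 untreated samples and 3 given 50 mM sodium pyruvate, and 1 array each. The medium of both groups was DMEM with glutamine, antibiotics and fetal bovine serum at 10%. The labels state only for the pyruvate medium that its DMEM came without pyruvate, so for the untreated cells this is unknown here. By its title the study asked about mitochondrial biogenesis under pyruvate. No sodium-matched medium was analysed here, so pyruvate and the sodium given with it cannot be told apart.

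The values are microarray signals scaled by the authors to the same trimmed mean, 150.0 on each array, and a change is the difference of log2(signal + 16), pyruvate minus untreated. Median signals lay between 30.3 and 33.0, and arrays correlated at 0.985 to 0.991 within a group and 0.979 to 0.983 between groups. Of the myoblast markers 7 of 8 passed the filter, with Pax7 below it; 4 were called lower (Vcam1, Myf5, Cdh15 and Itga7) and 2 higher (Myod1 and Ncam1), and their summed signal was 8796 to 9163 in untreated and 7775 to 7968 in pyruvate cells. Of 18 myotube markers 17 passed the filter, 16 of them were called lower, and Ckm was not called (-0.23, adjusted p = 0.17). Their summed signal was 11597 to 12059 on the untreated and 2050 to 2503 on the pyruvate arrays, and Myh8 was near 0 in both groups (2.43 and 2.10). Of 10 fibroblast and adipocyte markers on the arrays 6 passed the filter, with Thy1, Fap, Adipoq and Fabp4 below it. Their summed signal was 6955 to 7372 in untreated and 7974 to 8234 in pyruvate cells, a difference that lay mostly in Col1a2 (3062 to 3850 in the mean), the only one called; the median change of the 6 was 0.14, and -0.02 after quantile normalization. What part these differences in marker levels had in the synthetase values was not tested. In such bulk RNA, fewer cells of a type and less RNA per cell cannot be told apart.

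Synthetase transcripts changed little with pyruvate, and the enzymes did not move as a block. Of the 19 cytosolic enzymes tested, 5 rose (Farsa, Gars, Aars, Kars and Rars), 2 fell on their brightest probe set (Farsb and Hars, each with another probe set that rose) and 12 were not called. Of the 15 mitochondrial enzymes, 2 rose (Tars2 and Rars2), 1 fell (Wars2) and 12 were not called. A gene was called at an adjusted p under 0.05 in limma, and 35.1% of all genes tested were called in this comparison, 20.7% higher and 14.5% lower, beside 36.8% of the cytosolic, 20.0% of the mitochondrial and 29.4% of all synthetases tested. The share of synthetases called was thus near that of all genes for the cytosolic class and below it for the mitochondrial class. These shares were not matched for brightness, and brighter probe sets were called more often. At a mean log2 value under 7, where 8 mitochondrial and 0 cytosolic enzymes lay, 6.64% of probe sets were called higher and 10.2% lower. From 10 to 11, where 6 cytosolic and 0 mitochondrial enzymes lay, 29.9% were called higher and 21.1% lower. What part brightness had in the contrast between the classes was not tested. Over single probe sets 32.2% were called, and 31.2% after quantile normalization. The median change was 0.05 for the cytosolic enzymes (lowest -0.50, highest 0.36), 0.04 for the mitochondrial (lowest -0.33, highest 0.53) and 0.03 for all genes.

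Between the compartments the medians differed less than single enzymes did. Relative to the untreated mean, the median over the cytosolic enzymes was 0.06, 0.06 and 0.07 on the 3 pyruvate arrays, and that over the mitochondrial enzymes was -0.03, 0.13 and 0.225. The middle 50% of changes ran from -0.06 to 0.15 among cytosolic and from -0.15 to 0.23 among mitochondrial enzymes, and the median standard error of a change was 0.05 and 0.11, so the wider scatter of the mitochondrial enzymes came with larger errors. Their probe sets were also dimmer, with untreated means of 43.8 to 362 against 415 to 2346 for the cytosolic ones. Untreated and pyruvate arrays did not overlap for 11 cytosolic enzymes, 8 higher and 3 lower, and for 10 mitochondrial ones, 6 higher and 4 lower. Over all genes tested 48.6% did not overlap, 28.6% higher and 20.0% lower.

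**Figure D1:**
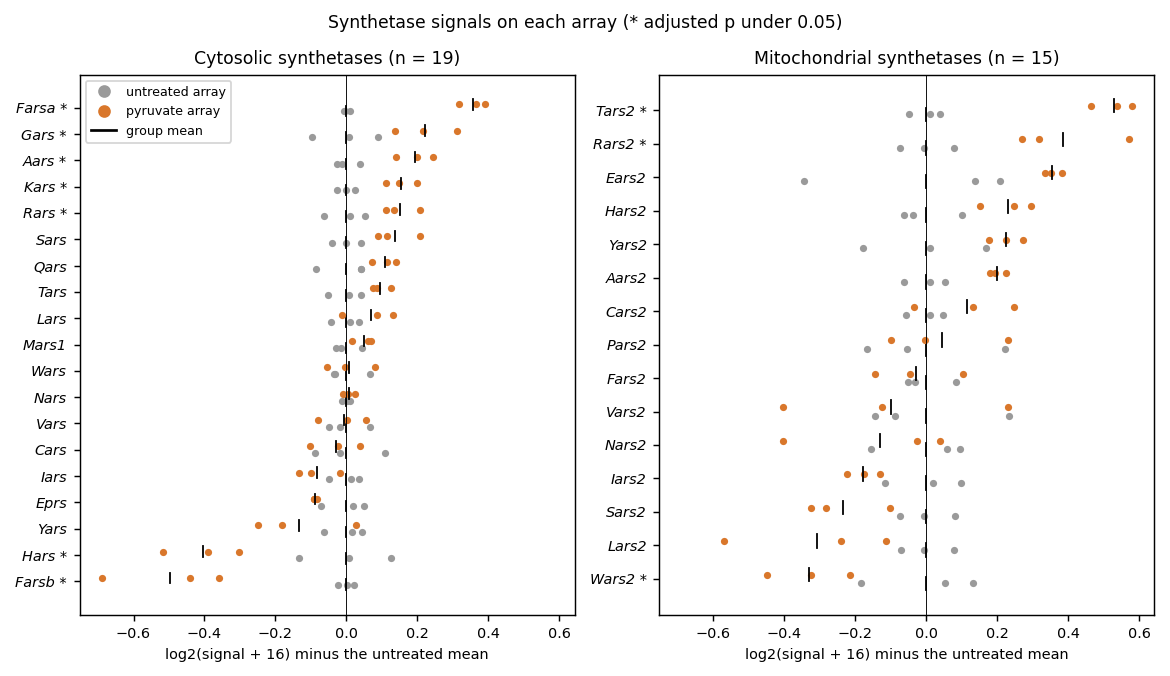
Signals of the 34 tested synthetases on each array as log2(signal + 16) minus the gene's untreated mean (x axis), with 3 untreated and 3 pyruvate arrays as points and the group mean as a black line. Asterisks mark the 7 cytosolic and 3 mitochondrial enzymes called; most other enzymes have overlapping groups or small gaps between them.

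Promoter sequences were searched for motifs of factors known to act on such genes. RefSeq promoter windows of 300 bases (build GRCm38.p6, 250 before to 50 after the start of transcription) were matched for 12 cytosolic and 14 mitochondrial enzymes and searched on both strands. The amino acid response core TGATGNAA was in 5 of the 12 cytosolic windows (Aars, Gars, Iars, Tars and Yars) and in 0 of the 14 mitochondrial ones, beside 3.97% of 32851 windows of all genes. A core from each of these 5 genes is shown with 10 bases on either side because, of the 5 motifs searched, it was found in only 1 of the classes. The stretches are written 5′ to 3′ along the gene, capitals mark the core, and on the opposite strand TTGCATCA reads as TGATGCAA.
Aars, 10 bases after the start, chr8:111033841-111033868, plus strand: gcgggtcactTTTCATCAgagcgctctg
Gars, 30 bases before the start, chr6:55037961-55037988, plus strand: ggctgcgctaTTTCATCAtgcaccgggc
Iars, 8 bases after the start, chr13:49682127-49682154, plus strand: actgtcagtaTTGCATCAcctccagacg
Tars, 15 bases before the start, chr15:11399656-11399683, minus strand: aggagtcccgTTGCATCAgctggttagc
Yars, 4 bases after the start, chr4:129189896-129189923, plus strand: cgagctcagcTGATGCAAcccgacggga
The positions are those of the first capital. Of these 5 genes only Aars and Gars rose; Tars changed by 0.10 (adjusted p = 0.15), Iars by -0.08 (adjusted p = 0.24) and Yars by -0.13 (adjusted p = 0.19). A match is a description of the letters and not evidence that a factor bound there.

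Other motifs were spread over both classes. The ETS motif CCGGAAGT was in 2 cytosolic windows (Farsa and Mars1) and 1 mitochondrial window (Rars2), beside 3.89% of all windows. It is shown for these 3 because Farsa and Rars2 were among the enzymes that rose most. Mars1 was not called (0.05, adjusted p = 0.47). Again 10 bases are given on either side, with the motif in capitals on the opposite strand.
Farsa, 23 bases before the start, chr8:84856953-84856980, plus strand: cgctatcgcgACTTCCGGttccagttcc
Mars1, 30 bases before the start, chr10:127311799-127311826, minus strand: cgcaccgtcaACTTCCGGgtctcgttgg
Rars2, 5 bases before the start, chr4:34614942-34614969, plus strand: agcagaggcgACTTCCGGcgcggaggcg
The NRF1 motif (GCGCA, any base, then GCGC) was in 3 cytosolic (Farsb, Kars and Tars) and 2 mitochondrial windows (Iars2 and Mars2), beside 4.60% of all windows. The E-box CACGTG was in 4 cytosolic windows and 1 mitochondrial window (7.15% of all), and CCAAT was in 7 and 6 (37.4% of all). The 250 bases before the start are given for Tars2, the enzyme that rose most. None of the 5 motifs, as spelled here, lay in these letters, so none is in capitals. The 1 match in its window was a CCAAT 45 bases after the start. Shorter or variant forms of the motifs were not searched.
Tars2, chr3:95754978-95755227, minus strand: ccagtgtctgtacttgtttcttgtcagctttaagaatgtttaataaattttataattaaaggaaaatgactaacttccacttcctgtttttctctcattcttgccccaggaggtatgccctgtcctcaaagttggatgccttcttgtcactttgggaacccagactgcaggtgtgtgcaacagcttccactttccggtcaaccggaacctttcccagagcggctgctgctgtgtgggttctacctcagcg

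Among the cytosolic enzymes the steadiest rise was that of Farsa, the catalytic subunit of the phenylalanine enzyme. Its signals were 418.4, 413.9 and 414.1 in untreated and 549.7, 521.5 and 540.4 in pyruvate cells. Every pyruvate array lay above every untreated one, and the change was 0.36 ± 0.05 (SE, n = 3 arrays each; adjusted p = 0.00034), a fold of 1.28. It kept its call under all 6 removals of an array and under quantile, cyclic loess and median scaling; averaged with its other, dim probe set it was 0.12 and not called (adjusted p = 0.14).

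Farsb encodes the other subunit of the same tetramer, and its probe sets went in opposite directions. Its brightest probe set read 623.3, 644.0 and 634.0 in untreated and 387.1, 462.3 and 490.2 in pyruvate cells, a change of -0.50 ± 0.08 (SE; adjusted p = 0.00054). A dimmer one read 302.1, 283.8 and 350.0 in untreated and 359.9, 463.3 and 398.6 in pyruvate cells, a change of 0.37 (adjusted p = 0.013), close to that of Farsa. The groups did not overlap on either, so whether Farsb rose or fell depends on the probe set. The remaining pair of Farsb probe sets, at -0.04 and 0.08, were not called, and the mean over all 4 was -0.03 (adjusted p = 0.80).

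Hars, the histidine enzyme, split in the same way. Its brightest probe set was at 657.1, 595.1 and 714.8 in untreated and 451.8, 527.5 and 495.4 in pyruvate cells, a change of -0.40 ± 0.075 (SE; adjusted p = 0.0019). Its other probe set rose by 0.21 (adjusted p = 0.044), from 361 to 419 in the mean. Both separated the groups without overlap, and the mean of both was not called (-0.095, adjusted p = 0.29).

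Aars, the alanine enzyme, and Gars, the glycine enzyme, were bright and rose slightly. Aars read 1465.4, 1532.1 and 1479.8 in untreated and 1770.3, 1645.2 and 1713.9 in pyruvate cells, a change of 0.19 ± 0.05 (SE; adjusted p = 0.0098), and its other probe set rose by 0.24 (adjusted p = 0.0049). Gars read 2190.2, 2355.0 and 2493.7 in untreated and 2913.3, 2576.8 and 2724.9 in pyruvate cells, a change of 0.22 ± 0.06 (SE; adjusted p = 0.018). In both genes all pyruvate arrays were above all untreated arrays, though for Gars the gap between the groups was narrow.

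Kars, the lysine enzyme, and Rars, the arginine enzyme, sit in the multi-synthetase complex and rose by about the same amount. Kars read 797.8, 783.9 and 812.6 in untreated and 863.9, 919.1 and 885.7 in pyruvate cells, a change of 0.15 ± 0.05 (SE; adjusted p = 0.031). Rars read 1107.0, 1200.6 and 1165.6 in untreated and 1339.9, 1272.0 and 1252.9 in pyruvate cells, a change of 0.15 ± 0.05 (SE; adjusted p = 0.040). Neither pair of groups overlapped, and both changes lay within the middle 50% of all genes, which ran from -0.14 to 0.19.

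The calls of Gars, Aars, Kars and Rars were close to the threshold. With an array left out the changes kept their direction, at 0.17 to 0.27 for Gars, 0.17 to 0.22 for Aars, 0.13 to 0.17 for Kars and 0.12 to 0.18 for Rars, but with fewer arrays calls were lost. Without untreated replicate 1 only Farsa stayed called higher among the cytosolic enzymes. The count was 3 without untreated replicate 2, untreated replicate 3 or pyruvate replicate 2, 2 without pyruvate replicate 3, and 4 without pyruvate replicate 1, where Sars was called with Farsa, Aars and Kars. Bright probe sets were higher with pyruvate across the arrays: the 864 at a mean log2 value of 11 or more, Gars and Nars among them, had a median change of 0.23, against 0.002 for the 8655 between 7 and 9. After quantile normalization these medians were 0.003 and 0.011, Gars was at 0.11 (adjusted p = 0.20) and Rars at 0.13 (adjusted p = 0.058), while Aars (0.15, adjusted p = 0.032) and Kars (0.16, adjusted p = 0.021) stayed called. After cyclic loess all 4 kept their sign at 0.085 to 0.12, with adjusted p from 0.076 to 0.29.

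**Figure D2:**
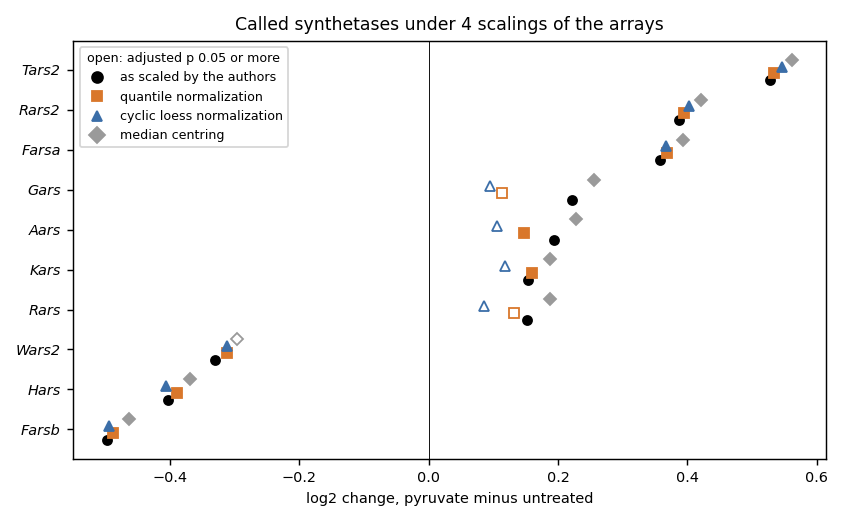
Log2 change of the 10 called synthetases (x axis) with the arrays as scaled by the authors and after 3 other scalings, filled where the adjusted p was under 0.05. Tars2, Rars2, Farsa, Hars and Farsb are filled under all 4 scalings, whereas Gars, Aars, Kars and Rars lie nearer 0 and are open after cyclic loess; Wars2 is open after median centring.

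The other cytosolic enzymes were not called on their brightest probe set. Eprs, the fused glutamate and proline enzyme, read 675.3, 619.8 and 660.9 in untreated and 614.3, 610.4 and 610.6 in pyruvate cells (-0.09, 95% interval -0.20 to 0.025, adjusted p = 0.22). Qars, the glutamine enzyme, read 590.7, 539.4 and 590.8 in untreated and 603.4, 622.1 and 632.9 in pyruvate cells (0.11, 95% interval -0.01 to 0.23, adjusted p = 0.16). In both the groups separated by a small margin that the test did not resolve. Likewise not called were Sars (0.14, adjusted p = 0.056), Tars (0.10), Lars (0.07), Mars1 (0.05), Wars, Nars, Vars, Cars, Iars (-0.08) and Yars (-0.13). Yars was, however, called lower without pyruvate replicate 2. The other Sars probe set was at -0.09 (adjusted p = 0.23) and lower on every pyruvate array than on every untreated one. Nars, for asparagine, was among the closest to 0, at 2040 ± 15.6 and 2051 ± 24.2 (SD, n = 3), a change of 0.01 with a 95% interval of -0.09 to 0.10.

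Wars, the tryptophan enzyme, was at 0.01 on its brightest probe set (adjusted p = 0.94), but each of its other 3 probe sets was lower on every pyruvate array than on every untreated one. Of these, 2 were called, at -0.29 (adjusted p = 0.0028) and -0.28 (adjusted p = 0.014), and the remaining one was at -0.17 (adjusted p = 0.16). Of 16 synthetases with several tested probe sets, 2 (Farsb and Hars) were called in both directions, where 3.36% of 5173 such genes were. Probe sets with the suffix _x_at, some of whose probes can match other transcripts, gave the lower Farsb value and a lower Wars value. The brightest Wars probe set, at 0.01, is also of this kind, and the other Wars probe set called lower is not. Of 7 such synthetase probe sets, 2 were called lower and 1 (Tars2) higher, beside 20.5% lower and 18.9% higher among all 1510 tested. Over 869 genes with both kinds, the _x_at value was below the others in 62.5%, with a median difference of -0.08. The part of cross-matching probes in these differences was not tested.

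**Figure D3:**
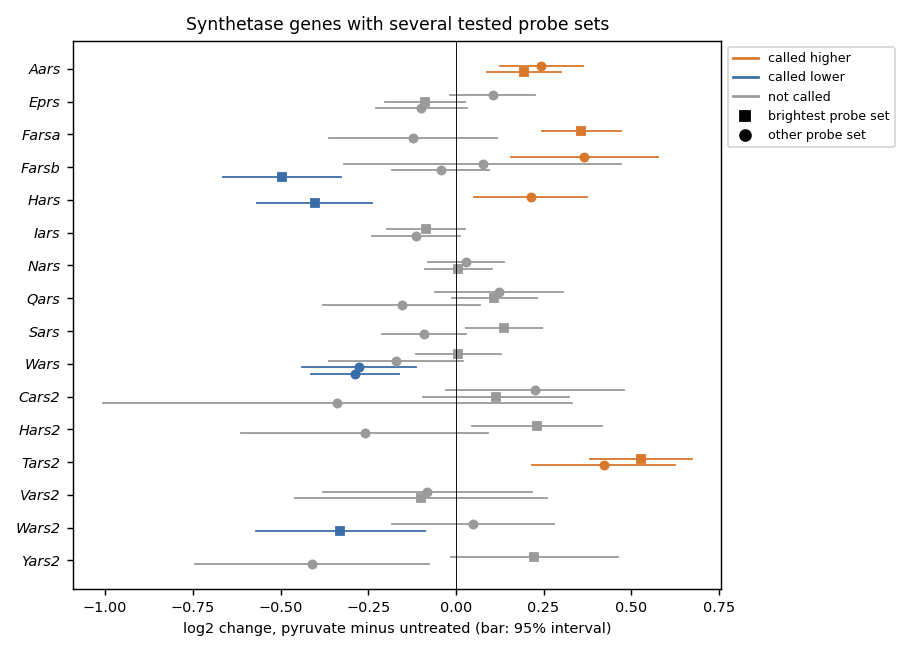
Log2 change with its 95% interval (x axis) for every tested probe set of the 16 synthetases that have more than 1; squares are the brightest probe sets and colour gives the call. Farsb and Hars have called values on both sides of 0, Aars and Tars2 on the same side.

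By structure, the 7 measured enzymes of the multi-synthetase complex (Eprs, Iars, Kars, Lars, Mars1, Qars and Rars) moved within a narrow range, from -0.09 to 0.15 with a median of 0.07, with 2 called higher and 0 lower. At an unadjusted limma p under 0.05 none of the 7 was lower. The 12 cytosolic enzymes outside it ran from -0.50 to 0.36 with a median of 0.01, 3 higher and 2 lower. Those 2 were Farsb and Hars, which were not called when averaged over their probe sets (-0.025 and -0.095). Called were 28.6% inside and 41.7% outside the complex, beside 35.1% of all genes. The proteins that hold the complex together were not called: Aimp1 was at 0.01 (95% interval -0.12 to 0.14), Aimp2 at 0.07 (-0.04 to 0.17) and Eef1e1 at 0.04 (-0.07 to 0.16). The enzymes were also grouped by catalytic fold, a division added after the values were seen. Class I enzymes had 2 of 17 higher and 1 lower (median 0.01, 17.6% called). Class II enzymes had 5 of 16 higher and 2 lower (median 0.12, 43.8% called). The 2 lower in class II were Farsb and Hars, each with another probe set that rose. Eprs, which holds both folds, was left out of that division.

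Tars2, which charges mitochondrial tRNA with threonine, rose most of all synthetases. Its signals were 205.9, 210.4 and 197.0 in untreated and 304.1, 288.3 and 313.4 in pyruvate cells. The groups were far apart, with a change of 0.53 ± 0.07 (SE, n = 3 arrays each; adjusted p = 0.00013), a fold of 1.44, and 4.03% of all genes tested had a higher change. Its dimmer probe set rose by 0.42 (adjusted p = 0.0051). Tars2 stayed called under all 19 alternatives run, with changes of 0.45 to 0.56.

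Rars2, the mitochondrial arginine enzyme, was measured by 1 probe set and rose with more scatter. Its signals were 360.3, 383.0 and 342.9 in untreated and 454.6, 439.7 and 545.7 in pyruvate cells, a change of 0.39 ± 0.08 (SE; adjusted p = 0.0036). Pyruvate replicate 3 was the highest of these arrays, and without it the change was 0.29 and still called. Rars2 also stayed called under all 19 alternatives, with adjusted p from 0.0020 to 0.024.

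Wars2, the mitochondrial tryptophan enzyme, was the only one of its class called lower. It read 132.6, 141.0 and 110.1 in untreated and 98.3, 89.0 and 107.4 in pyruvate cells, a change of -0.33 ± 0.11 (SE; adjusted p = 0.039). The lowest untreated and the highest pyruvate array almost met, and its other probe set was at 0.05 (adjusted p = 0.76). The call was lost without untreated replicate 1 (-0.30), untreated replicate 2 (-0.26), pyruvate replicate 1 (-0.33) or pyruvate replicate 2 (-0.27); without pyruvate replicate 3 both Wars2 and Lars2 were called lower. Averaged with its other probe set Wars2 was at -0.14 (adjusted p = 0.18).

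Among the mitochondrial enzymes not called, 4 were higher on every pyruvate array than on every untreated array: Ears2 (glutamate, 0.36, adjusted p = 0.10), Hars2 (histidine, 0.23, adjusted p = 0.058), Yars2 (tyrosine, 0.22, adjusted p = 0.14) and Aars2 (alanine, 0.20, adjusted p = 0.17). Lars2 (leucine, -0.31, adjusted p = 0.063), Sars2 (serine, -0.24, adjusted p = 0.19) and Iars2 (isoleucine, -0.18, adjusted p = 0.099) were lower on every pyruvate array. Cars2, Pars2, Fars2, Vars2 and Nars2 overlapped between the groups, with changes from -0.13 for Nars2 to 0.115 for Cars2. The second probe set of Yars2 leaned the other way, at -0.41 (adjusted p = 0.060), as did that of Hars2, at -0.26 (adjusted p = 0.25). Ears2 was dim, at 48.8, 52.1 and 30.4 in untreated and 58.3, 60.8 and 59.2 in pyruvate cells, with untreated replicate 3 the lowest.

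For 15 amino acids a tested enzyme of each compartment could be set side by side, Eprs standing in for both glutamate and proline. On the brightest probe sets the signs agreed for 5 and differed for 10. For arginine alone both enzymes were called, both higher. Of the 16 synthetases with several tested probe sets, 11 had probe sets of opposite sign, so these sign counts depend on the probe set. The other Hars probe set, at 0.21, had the sign of Hars2. In 9 pairs neither enzyme was called. Several signs belong to changes near 0, such as Nars (0.007), Wars (0.007) and Vars (-0.008). For threonine the cytosolic enzyme was at 0.10 (95% interval -0.01 to 0.20) and the mitochondrial one at 0.53 (0.38 to 0.67). For histidine they were at -0.40 (-0.57 to -0.24) and 0.23 (0.045 to 0.42), and for leucine at 0.07 (-0.05 to 0.185) and -0.31 (-0.56 to -0.05). For phenylalanine Farsa was at 0.36 (0.245 to 0.47) and Fars2 at -0.03 (-0.22 to 0.16). In these 4 the intervals did not overlap; in the other 11 they did. The differences themselves were not tested. Those for histidine and phenylalanine rest on single probe sets: Farsb, the other subunit of the cytosolic phenylalanine enzyme, was at -0.50 on its brightest probe set. For tryptophan the brightest Wars probe set differed in sign from Wars2, while the other 3 were lower, as Wars2 was.

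**Figure D4:**
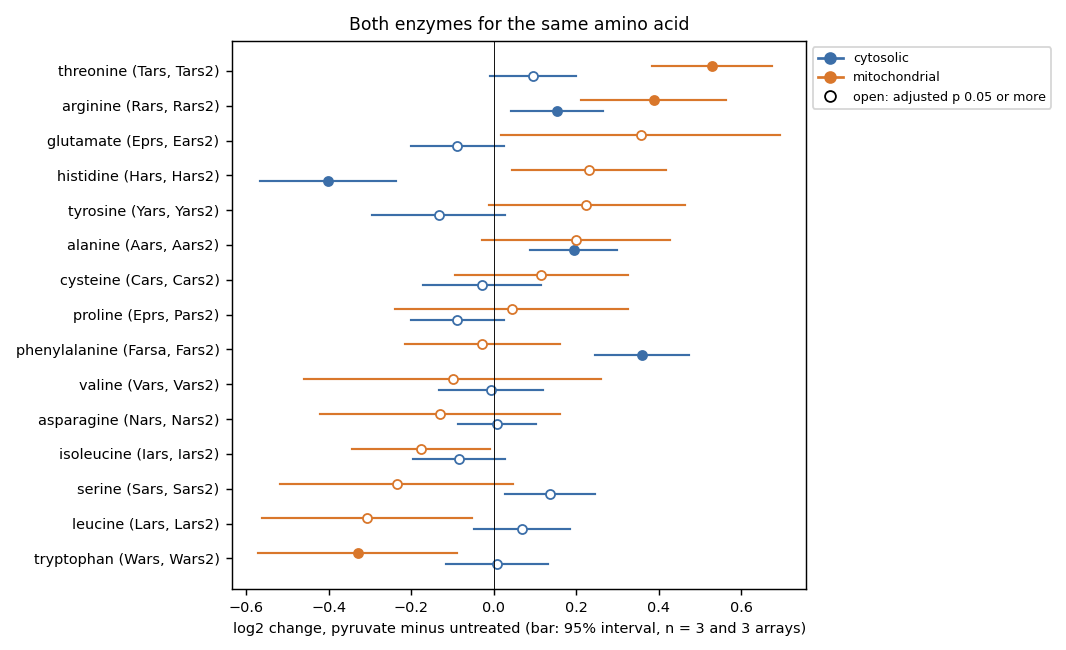
Log2 change with its 95% interval (x axis) of the cytosolic and the mitochondrial enzyme for each of 15 amino acids, 3 arrays a group, filled where the adjusted p was under 0.05. Threonine, histidine, phenylalanine and leucine have intervals that do not meet.

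Among the partners that complete mitochondrial charging and translation, 1 gene was called. Mammalian mitochondria have no glutaminyl-tRNA synthetase of their own and make glutaminyl-tRNA by amidating glutamyl-tRNA with the complex of Qrsl1 (-0.225, adjusted p = 0.14), Gatb (0.13, adjusted p = 0.53) and Gatc (-0.03, adjusted p = 0.81), none of which was called. Of 14 such partners and translation factors tested, 1 rose and 0 fell by limma (7.14% called, beside 35.1% of all genes), with 2 higher and 2 lower at an unadjusted p under 0.05 and a median of -0.01. The one that rose was Tsfm, the mitochondrial elongation factor Ts, at 342.0, 334.6 and 387.6 in untreated and 455.5, 461.3 and 502.4 in pyruvate cells (0.40 ± 0.07 SE, adjusted p = 0.0011), with all pyruvate arrays above all untreated ones. Mtfmt, which formylates the initiator methionyl-tRNA, was at 0.285 (adjusted p = 0.060). After quantile normalization Mtfmt was called higher (0.305, adjusted p = 0.043), which made 2 of this list higher and 0 lower.

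Of 10 synthetase cofactors and proofreading factors, 1 rose and 1 fell (20.0% called, beside 35.1% of all genes). Dtd1, which removes D-amino acids from tRNA, read 81.8, 78.4 and 87.5 in untreated and 132.0, 117.6 and 138.4 in pyruvate cells (0.56 ± 0.10 SE, adjusted p = 0.0013). Prorsd1, a relative of the bacterial prolyl-tRNA editing domain, read 123.6, 138.8 and 120.5 in untreated and 84.1, 92.6 and 85.3 in pyruvate cells (-0.47 ± 0.10 SE, adjusted p = 0.0031). Neither overlapped between groups. Of 37 genes of tRNA processing and modification 6 rose and 2 fell (21.6% called, also below the 35.1% of all genes), with a median of 0.05. Those with the largest changes were Tsen54 of the splicing endonuclease (0.59), Trmt6 of a tRNA methyltransferase (0.51), Pop5 of RNase P (0.415) and Trnt1. Other Trmt6 probe sets, at 0.21 (adjusted p = 0.18) and -0.18 (adjusted p = 0.29), were not called. Trnt1, the CCA-adding enzyme, was called lower on its brightest probe set (-0.385, adjusted p = 0.0078) and higher on another (0.37, adjusted p = 0.0061).

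The amino acid response, the pathway that induces many cytosolic synthetases, moved both ways. Of 30 members tested 10 rose and 3 fell, 43.3% called against 35.1% of all genes, with a median of 0.06; after quantile normalization 10 were higher and 5 lower (34.6% of all genes called). Atf4 read 1882.2, 1915.4 and 2009.3 in untreated and 2749.8, 2566.7 and 2711.2 in pyruvate cells, a change of 0.46 ± 0.05 (SE; adjusted p = 4.5e-05), and 0.38 after quantile normalization. Another Atf4 probe set, of the _x_at kind, was called lower (-0.40, adjusted p = 0.0024). Atf5 (0.48, adjusted p = 9e-05), a related factor, and Ddit3 (0.39, adjusted p = 0.00071), which encodes CHOP, rose. The others called higher were Ppp1r15a (0.37), Phgdh (0.34), Nupr1 (0.31), Cebpb (0.30), Chac1 (0.29), Sesn2 (0.285) and Slc3a2 (0.265), with adjusted p from 0.00055 for Phgdh to 0.025 for Sesn2. Phgdh catalyses the first step of serine synthesis, and Slc3a2 is the partner chain of several amino acid transporters.

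Other ATF4 targets were not called or fell. Asns, asparagine synthetase, read 1359.1, 1425.5 and 1358.2 in untreated and 1423.4, 1579.5 and 1435.2 in pyruvate cells (0.10, adjusted p = 0.19), with overlapping groups, and its other, _x_at, probe set was called lower (-0.30, adjusted p = 0.0016). Trib3, a feedback inhibitor of ATF4, was at 0.02 (adjusted p = 0.91). Gpt2, mitochondrial alanine aminotransferase, fell by 0.78 (adjusted p = 4.2e-06), and Slc7a5, a transporter of large neutral amino acids, fell by 0.41 (adjusted p = 0.00024). Fgf21, below the filter, read 43.5, 54.2 and 61.6 in untreated and 8.0, 15.4 and 20.8 in pyruvate cells (-1.18 in the fit without the filter, adjusted p = 0.0070). On their brightest probe sets Atf4, Atf5 and Ddit3 had larger changes than any cytosolic synthetase called higher, but these differences were not tested. The margin was small for Ddit3, at 0.39 against 0.36 for Farsa. After quantile normalization it was also small for Atf4, at 0.38 against 0.37 for Farsa. The order depends on the probe set: another Atf4 probe set was called lower (-0.40). Other probe sets of Ddit3 (-0.18, adjusted p = 0.29) and Farsa (-0.12, adjusted p = 0.43) were not called.

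**Figure D5:**
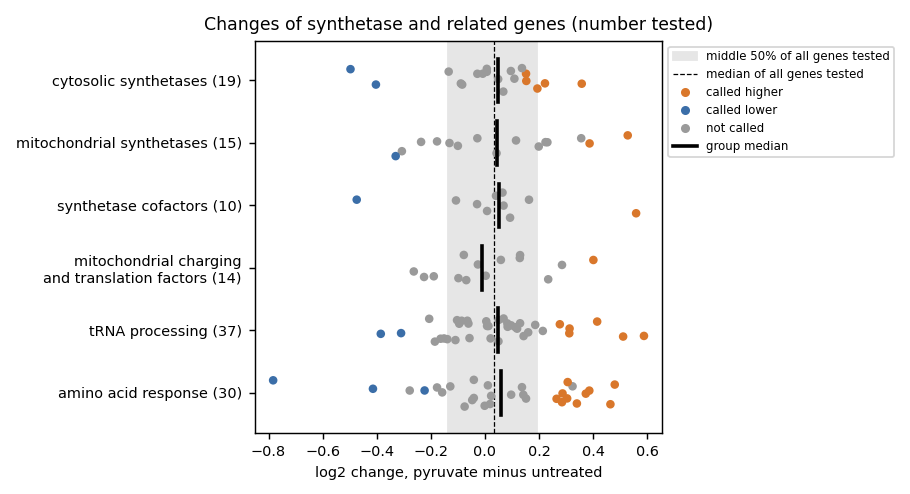
Log2 change (x axis) of each tested gene in the synthetase classes and 4 related lists, coloured by call, with group medians as black bars and the middle 50% of all genes tested shaded. The 6 medians lie between -0.01 and 0.06, near the median of all genes (0.03).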

How the data were processed

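RNA was extracted with Trizol and labelled with biotin as cRNA, per the labels' protocols, and measured on 6 Affymetrix arrays. The authors deposited 1 linear intensity per probe set, made with MAS5 per the submitters' processing notes, with version and settings unstated. The number of arrays limits the precision. No label says that samples came from separate cultures; if they were not, the p-values reflect technical spread alone.

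Of 45101 probe sets 64 controls were left out. Signals were taken as log2(signal + 16), so fold changes understate those of dim genes. Probe sets with a mean log2 value of at least 5.53 (a signal of about 30.3) were tested, 22519 in all, with limma 3.58.1 in R 4.3.3 (mean-variance trend, two-sided, Benjamini-Hochberg over all of them, threshold 0.05); 32.2% were called. Each gene took the values of its brightest probe set. Symbols came from the platform annotation; RefSeq promoter windows of GRCm38.p6 were matched by gene identifier. The fit was tested on simulated data. Figures were drawn with matplotlib 3.10.9.

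The members and lists were chosen with earlier results of these data known. Per-array values are given for up to 8 called members per class with the largest changes and for Kars, Gars, Qars and Eprs; from other lists up to 4 called members, and Aimp1, Aimp2, Eef1e1, Atf4, Asns, Ddit3 and Trib3 always, with 1 further gene that is not reported here. Values added after they were seen are those of other probe sets, of Ears2, and of Mtfmt, Qrsl1, Gatb, Gatc, Fgf21, the single markers and the further genes of the amino acid response called higher. Alternatives were pseudocounts of 1 and 64, no filter and a filter at the 70th percentile, quantile, median and cyclic loess scaling, 3 other variance settings (array weights, robust, no trend), a block for the replicate number, averaging of probe sets, and leaving out each array. The brightest probe set without the suffix _x_at or _s_at was added after the data were seen.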

Additional observations from a re-analysis of the deposited data

How the results depend on the processing

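The 5 cytosolic enzymes called higher became 3 after quantile normalization, 1 after cyclic loess, 2 without the signal filter, 1 without the variance trend and 1 to 4 when an array was left out. The 2 called lower became 1 with the mean over probe sets, which was Wars in place of Farsb and Hars, and were 2 to 3 with an array left out. The 1 mitochondrial enzyme called lower became 0 without the filter, after median centring and without the variance trend, where limma gave 3, 2 and 3 at an unadjusted p under 0.05, and 0 to 2 with an array left out; with the mean over probe sets or the replicate block it was Lars2 in place of Wars2 (adjusted p for Wars2 0.18 and 0.061). The 2 called higher stayed at 2 when any array was left out. The cytosolic median of 0.05 was 0.035 after quantile normalization, 0.083 after median centring, -0.009 after cyclic loess, 0.023 with the mean over probe sets, 0.068 without _x_at and _s_at probe sets and 0.036 to 0.07 with an array left out; the mitochondrial median ran from -0.05 to 0.11 with an array left out. Farsb turned from -0.50 to 0.37 without _x_at and _s_at probe sets, by construction, since another probe set then stands for the gene. Other causes were not tested. Deviations of same-numbered samples from their group means correlated at -0.01 to 0.02, which cannot settle whether the samples were paired. With the replicate block 3 cytosolic enzymes were called higher and 6917 probe sets were called, against 7250. Dim signals limit Mars2, Ears2, Sars2 and Vars2, whose changes have wide intervals.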
